A study of Rattus norvegicus with 12 samples.

Results

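The 7 Hox genes described here are Hoxa7, Hoxb7, Hoxb8, Hoxd9, Hoxd10, Hoxa11 and Hoxd12. They were taken as the probes whose RefSeq accession belongs to these genes, which gave 1 probe for each gene among 30367 probes on 12 single-colour Agilent arrays. Of the 39 Hox genes of the 4 clusters, 20 had a named probe. The arrays held total RNA of sciatic nerve, of dorsal root ganglia (DRG, the clusters of sensory neurons beside the cord, here from lumbar levels 4 and 5) and of the left dorsal part of the spinal cord. The rats were 8-week-old females, either wild-type Sprague-Dawley rats (NORMAL in the labels) or athymic nude rats (Hsd:RH-Foxn1rnu), which lack mature T cells. All had 50 μg of the myelin basic protein peptide MBP84-104 in 5 μL injected into the left sciatic nerve, and no array held tissue of an uninjected rat. Tissue was taken 12 days later in wild-type and 7 days later in nude rats, per the labels. The study's text instead gives 1 week for both rat types, and groups of 6 where the labels give pools of 3 animals. The labels were used, and neither difference was settled here. The labels call the wild-type rats 8-week-old Sprague-Dawley animals, whereas the study's text names heterozygous (rnu+/-) rats as the controls of the nude rats and gives that age for nude and heterozygous rats, and this was not settled here. Each rat type gave 1 array, a pool of 3 animals, for each of 6 sites: the injected nerve, the right nerve that received PBS, the left and right DRG, the lumbar enlargement of the cord and the cord above it.

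Hox genes encode homeodomain transcription factors that give embryonic tissue its position along the head-to-tail axis. Genes at one end of a cluster are switched on in anterior tissue and genes at the other end only in posterior tissue, and much of this pattern persists in the adult spinal cord. Genes of groups 4 to 9 mark brachial and thoracic levels, and groups 10 and 11 act at lumbar levels, where Hoxd10 takes part in setting motor neuron identity. The peripheral nerve itself holds Schwann cells and fibroblasts, while the cell bodies of its axons lie in the DRG and the cord.

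The start regions of the genes are shown because Hoxd9, Hoxd10 and Hoxa11 were higher in the lumbar cord and Hoxa7 was not. RefSeq (build GRCr8) gave the 250 bases before the annotated start of 5 of the 7 genes. Capitals mark the E-box CACGTG, a site read by basic helix-loop-helix factors and the same on both strands.
Hoxd9: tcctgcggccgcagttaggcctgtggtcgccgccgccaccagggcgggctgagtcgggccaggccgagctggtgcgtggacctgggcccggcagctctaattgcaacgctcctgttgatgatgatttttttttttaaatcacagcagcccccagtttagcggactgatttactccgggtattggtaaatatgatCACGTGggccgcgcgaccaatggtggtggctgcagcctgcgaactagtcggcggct
Hoxd10: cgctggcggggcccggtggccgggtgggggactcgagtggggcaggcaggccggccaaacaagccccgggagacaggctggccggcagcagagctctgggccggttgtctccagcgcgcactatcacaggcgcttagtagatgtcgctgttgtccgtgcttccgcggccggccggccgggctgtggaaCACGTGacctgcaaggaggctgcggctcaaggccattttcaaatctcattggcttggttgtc
Hoxa11: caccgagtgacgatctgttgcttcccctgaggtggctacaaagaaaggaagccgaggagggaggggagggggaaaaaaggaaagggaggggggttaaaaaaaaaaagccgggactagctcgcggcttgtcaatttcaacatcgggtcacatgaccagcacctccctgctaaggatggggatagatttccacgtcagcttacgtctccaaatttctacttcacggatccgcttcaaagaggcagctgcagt
Hoxa7: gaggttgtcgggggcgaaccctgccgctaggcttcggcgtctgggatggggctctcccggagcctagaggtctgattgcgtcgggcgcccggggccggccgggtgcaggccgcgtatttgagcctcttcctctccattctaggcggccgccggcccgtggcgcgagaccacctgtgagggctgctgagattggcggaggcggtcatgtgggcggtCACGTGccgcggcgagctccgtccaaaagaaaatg
These windows lie at chr3:80007756-80008005 on the plus strand for Hoxd9, at chr3:80001697-80001946 on the plus strand for Hoxd10, at chr4:82676802-82677051 on the minus strand for Hoxa11 and at chr4:82648242-82648491 on the minus strand for Hoxa7. The E-box was present in the windows of Hoxd9, Hoxd10 and Hoxa7, where it ended 51, 57 and 30 bases before the start, and in 5.59% of the 33465 windows of that length in the table. No window of the 5 members held TTTATNG, a motif of caudal and posterior Hox factors, TGATNNAT, a motif of Pbx and Hox dimers, or TATAAA, searched on both strands; these letters occurred in 10.1%, 7.96% and 12.9% of all windows, and TTTATNG can overlap TATAAA on the opposite strand. The windows held 11 CpG dinucleotides in Hoxa11, 14 in Hoxd12, 20 in Hoxd9, 21 in Hoxd10 and 28 in Hoxa7, against a median of 5 over all windows.

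A level below is the log2 signal of a probe minus the median of its array, so 0 is the median probe of that array, and levels are compared for 1 probe across arrays and never between probes. A signal well above background, as the scanner software called it, is written as detected. The tissues carried their labelled identity. Of the 13 cord markers with a probe, all were detected on the 4 cord arrays, and their summed linear level was 1532 to 2272 there against 66.5 to 96.7 in nerve and DRG. Sensory neuron markers summed to 740 to 840 in DRG and at most 33.2 elsewhere. The nude injected nerve was the dimmest array, with a median signal of 15.4 against 74.9 on the brightest, and 55.1% of its probes were detected. Hoxa7, Hoxb7 and Hoxd9 were detected on all 12 arrays, Hoxd10 and Hoxd12 on 6 each, Hoxb8 on 5 and Hoxa11 on 4. All 7 passed the filter of detection on at least 2 arrays, as did 22719 probes in all. In the RefSeq table the record of the Hoxa7 probe lists Hoxa9 among its older names and that of the Hoxa11 probe lists Hoxa10, and the sequences of the probes were not checked.

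**Figure D1:**
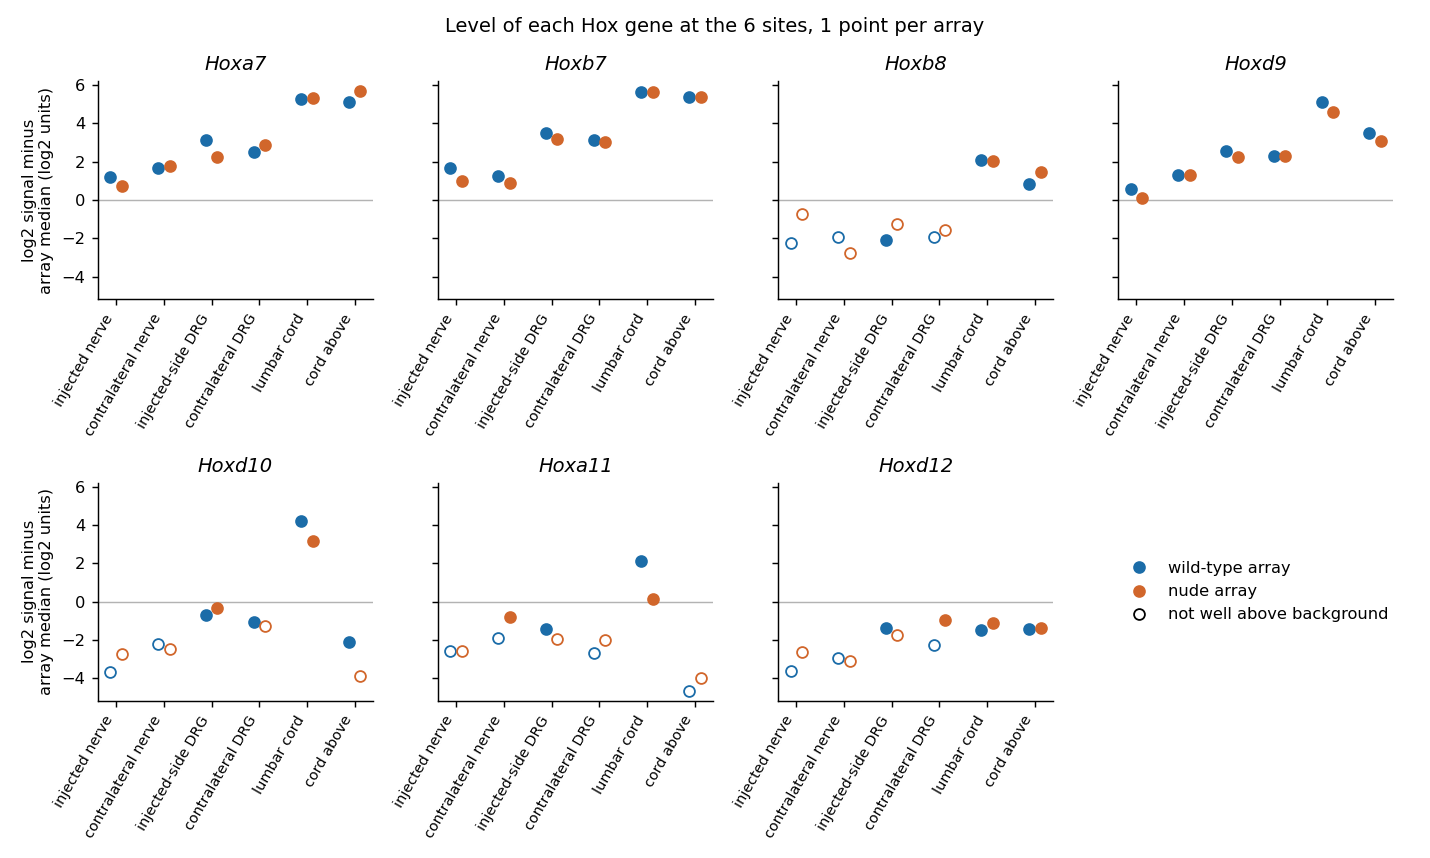
Level of each Hox gene (log2 signal minus array median, vertical axis) at the 6 sites (horizontal axis), with 1 point per array, blue for wild-type and orange for nude, and open points where the probe was not well above background. Hoxd10 and Hoxa11 stood out in the lumbar cord, with Hoxd10 at 3.20 and 4.23, while Hoxa7 and Hoxb7 were above 5 on all 4 cord arrays.

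The first comparison asked which Hox genes differed between the lumbar enlargement, the segment that receives the injected nerve, and the cord above it. Hoxd10, Hoxa11 and Hoxd9 were higher in the lumbar cord, Hoxd10 by 80.0-fold in the wild-type pair, the one in which both arrays detected it. Hoxa7, Hoxb7, Hoxb8 and Hoxd12 did not pass the test. Limma, with the 2 rat types as the replicates and p-values adjusted over all 22719 probes, called 26 probes higher, or 0.114% of those tested. Among them were 3 of the 7 members. The members were chosen with earlier results of these data known, so that count is only a description. Of the 6 other Hox genes tested, none was called. Limma called no probe lower (0%), and 1182 probes in either direction had an unadjusted p under 0.05. The median difference of the 7 genes was 0.88 on the log2 scale against -0.03 over all probes. The position along the cord and the input from the injected nerve differ together in this comparison and cannot be told apart, and in bulk tissue fewer cells of a type and less RNA per cell cannot be told apart either.

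Hoxd10 had a level of 4.23 in wild-type and 3.20 in nude lumbar cord, with signals of 1018 and 513. Above the enlargement its level was -2.10 in the wild-type rats, where it was detected with a signal of 17.5, and -3.88 in the nude rats, where it was not detected. The lumbar levels were the 2 highest of the 12 arrays. The difference was 6.70 (SE 0.56, 95% CI 5.41 to 7.99, adjusted p = 0.0078). This fit includes the undetected nude upper array at its measured level. The nude pair gave at least 70.1-fold, where an undetected signal was raised to the lowest detected signal of its array. A fold given as at least, here and below, holds only for these background-subtracted signals with that floor. It is not a bound for other background corrections. The call was lost when the nude lumbar (adjusted p = 0.073), the nude upper (0.078) or the wild-type lumbar array (0.076) was left out, with differences of 7.12, 5.83 and 6.28, and normexp background correction gave a smaller difference of 3.53, which was still called.

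Hoxa11, a group 11 gene that also patterns limb and uterus, had a level of 2.13 in wild-type and 0.16 in nude lumbar cord, with signals of 238 and 62.5. Above the enlargement it was not detected in either rat type, with levels of -4.66 and -4.00. It was at least 20.8-fold higher in the lumbar cord, the bright mean set against the floor of each upper array, with a fitted difference of 5.47 (SE 0.64, adjusted p = 0.032). The pairs gave at least 50.8-fold in wild-type and at least 8.53-fold in nude rats, and 2 lower bounds do not show whether the sizes differed. The call held in only 4 of the 10 other settings that kept the probe, from 1.75 (adjusted p = 0.83) with normexp correction to 5.53. It was lost when any array other than the nude lumbar one was left out, with differences of 4.29 to 5.87 and adjusted p between 0.056 and 0.31, and it held without the nude lumbar array, at 6.65 (adjusted p = 0.023).

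Hoxd9, the neighbour of Hoxd10 in the HoxD cluster, was detected at every site. Its lumbar levels were 5.10 in wild-type and 4.60 in nude rats, against 3.49 and 3.1 above the enlargement. The difference was 1.55 (SE 0.19, 95% CI 1.12 to 1.99, adjusted p = 0.035), or 2.93-fold, and was 1.60 for the wild-type pair and 1.5 for the nude pair, each pair lying on 1 slide. All 4 signals were far from background, between 462 and 1862. The direction held throughout, but the call did not survive leaving out any single array (adjusted p between 0.0505 and 0.32, differences 1.43 to 1.68) and held in 7 of the other 11 settings.

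**Figure D2:**
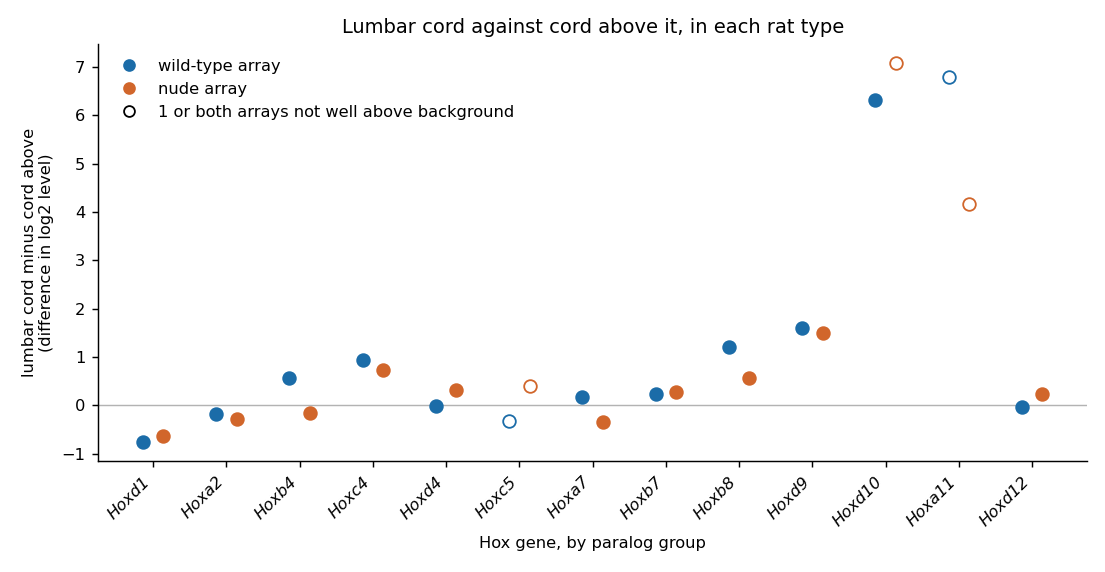
Difference in log2 level between the lumbar cord and the cord above it (vertical axis) for the 13 Hox genes that passed the filter, ordered by paralog group (horizontal axis), with 1 point per rat type and open points where an array of the pair was not well above background. Hoxd10 and Hoxa11 lay above 4 in both rat types, Hoxd9 near 1.5, and Hoxd12 near 0.

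The remaining members were measured at both cord sites. Hoxb8 stood at 2.07 and 2.02 in the wild-type and nude lumbar cord and at 0.86 and 1.46 above it. The difference of 0.88 (95% CI -0.19 to 1.96) had an adjusted p of 1.00. Hoxb7, next to Hoxb8 in its cluster, differed by 0.27 (95% CI -0.22 to 0.75), with levels of 5.62 and 5.65 against 5.37 and 5.37. Hoxa7 differed by -0.09 (95% CI -0.86 to 0.68), and the pairs went opposite ways. Hoxd12 lies beyond Hoxd10 in the HoxD cluster, in a group known for the tail end of the body and the limb buds. It was detected faintly on all 4 cord arrays, with signals of 19.4 to 27.5 and a difference of 0.10 (95% CI -0.79 to 0.99). The intervals of Hoxa7, Hoxb7 and Hoxd12 thus lay below a 2-fold rise (1 on the log2 scale), and that of Hoxb8 did not.

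Of the other Hox genes, 13 had a named probe and 6 of these passed the filter, and none was called in this comparison by limma. Hoxc4 came closest, with levels of 0.98 and 0.81 in the lumbar cord against 0.05 and 0.09 above it (difference 0.83, SE 0.20, unadjusted p = 0.0030, adjusted p = 0.56). Hoxd1, an anterior gene, had a difference of -0.70 (adjusted p = 1.00) and was lower in the lumbar cord in both pairs. Hoxa2, Hoxb4, Hoxc5 and Hoxd4 differed by -0.23 to 0.20. The probes of Hoxb9, a group 9 gene, and of Hoxd13, the last gene of its cluster, were not detected on any array.

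**Figure D3:**
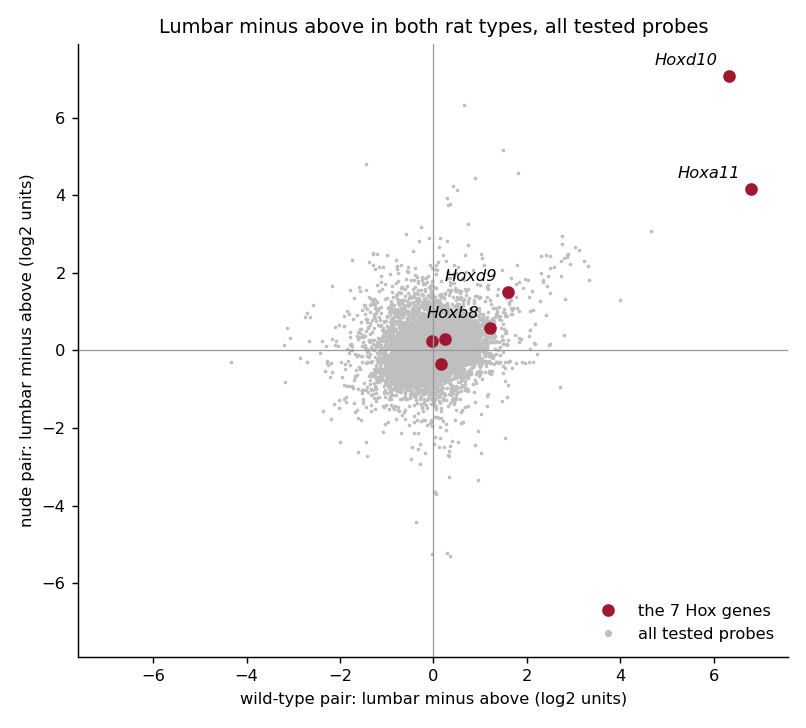
Lumbar minus above (log2 units) in the wild-type pair (horizontal axis) and the nude pair (vertical axis) for all 22719 tested probes in grey, with the 7 Hox genes in red. Hoxd10 (6.32 and 7.08) and Hoxa11 (6.79 and 4.16) lay apart from the grey points, but their positions rest on upper cord arrays without detection, both for Hoxa11 and the nude one for Hoxd10, and 3 unlabelled Hox genes lay near the centre.

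Of 11 nerve markers tested, 1 was called in the lumbar comparison. This was Pmp22, a peripheral myelin protein, which was higher in the lumbar cord (difference 2.08, adjusted p = 0.0083). Prx, which links Schwann cell myelin to the cell's skeleton, had a difference of 2.86 (adjusted p = 0.11). The differences were -0.58 for the glucose transporter Slc2a1, -0.03 for the collagen Col1a1 and 0.26 for Mbp, none of them called, and the median of the 11 was 0.60. The levels of Pmp22 and Prx were higher still in nerve, 11.04 for Pmp22 and 5.65 for Prx on average. The summed level of the nerve markers was 4712 and 4574 in the nude and wild-type lumbar cord and 4579 and 2967 above it, and all 11 were detected on all 4 cord arrays. Hoxd10 was not detected on any nerve array, with levels of -3.68 to -2.20, and Hoxd9 stood at 0.11 to 1.32 in nerve, below both cord sites. Hoxa11 was detected on 1 nerve array, the nude contralateral one, at -0.80, below both lumbar arrays. Why these Hox genes and Pmp22 were higher in the lumbar cord was not tested. Of the 5 ventral cord markers tested none was called in this comparison by limma, and all 5 had differences below 0, from -1.21 for Nkx6-1 to -0.10 for Chat. Their summed level was 3.78 and 9.65 in the nude and wild-type lumbar cord and 6.88 and 11.8 above it. Chrna2, a marker of ventral inhibitory neurons, was not detected on any cord array.

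**Figure D4:**
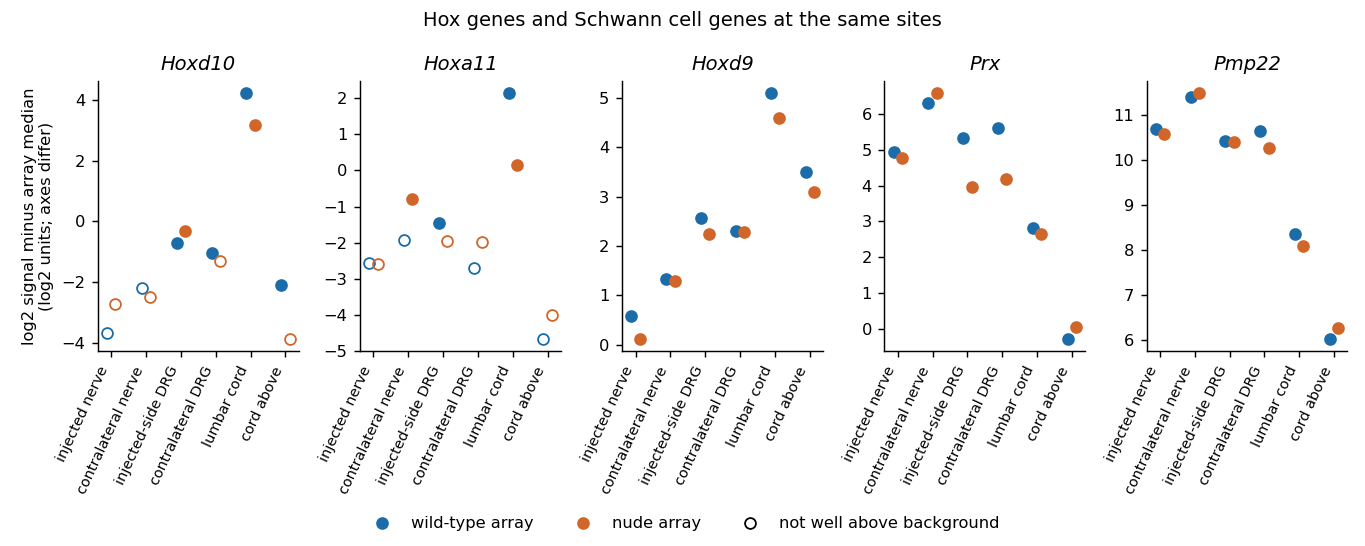
Levels (log2 signal minus array median, vertical axes that differ between panels) of Hoxd10, Hoxa11 and Hoxd9 beside the Schwann cell genes Prx and Pmp22 at the 6 sites, with 1 point per array and open points where a probe was not well above background. The levels of the 5 genes lay higher in the lumbar cord than above it in both rat types. Prx and Pmp22 were highest in nerve or DRG, and Hoxd10 and Hoxd9 were below their lumbar levels there. The cause of the lumbar differences was not tested.

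The next comparisons set the tissues against each other, with both sites of a tissue averaged. In the order cord, DRG, nerve, Hoxa7, Hoxb7 and Hoxd9 fell at each step, and each step passed the test. Hoxb8 was detected on all 4 cord arrays and on 1 array outside the cord, and Hoxd12 was close in cord and DRG and lower in nerve. Limma called 6 of the 7 members higher in cord than in nerve, where 28.2% of all probes were higher and 39.0% lower. It called 5 of the 7 higher in cord than in DRG, where 31.5% were higher and 30.1% lower, and 5 of the 7 higher in DRG than in nerve, where 15.1% were higher and 33.1% lower. No member was called lower in these 3 comparisons. Both counts for cord include Hoxb8, whose probe passed the filter only through the cord arrays, so its calls there are not separate support. The median differences of the members were 3.25, 1.73 and 1.5, against -0.21, -0.02 and -0.21 over all probes. The 3 comparisons share their arrays and are not independent, and the members were chosen with earlier results of these data known.

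Hoxb7, widely used as a mark of trunk neural tissue, had levels of 5.37 to 5.65 in cord, 3.05 to 3.49 in DRG and 0.88 to 1.69 in nerve. It was 4.88-fold higher in cord than in DRG (difference 2.29, SE 0.15, adjusted p = 7.52e-06) and 4.02-fold higher in DRG than in nerve (difference 2.01, SE 0.15, adjusted p = 1.95e-05). The ranges of the 3 tissues did not overlap, and the share of all probes for which this holds was not counted. Hoxa7, its paralog in the HoxA cluster, followed the same order, with 5.12 to 5.70 in cord, 2.24 to 3.14 in DRG and 0.73 to 1.79 in nerve. It was 6.36-fold higher in cord than in DRG (adjusted p = 3.59e-05) and 2.55-fold higher in DRG than in nerve (adjusted p = 0.0018). Hoxd9 ran from 3.1 to 5.10 in cord, from 2.24 to 2.56 in DRG and from 0.11 to 1.32 in nerve. Its cord level was 3.31-fold that of DRG (adjusted p = 1.72e-05), and the cord above the enlargement, at 3.1 and 3.49, was also above every DRG array. Normexp correction lowered the difference between DRG and nerve from 1.35 to 0.87 for Hoxa7 and from 1.52 to 0.87 for Hoxd9, and both stayed called.

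Hoxb8, which is known from mouse work for roles in dorsal horn development and in microglia, was detected on all 4 cord arrays, at 0.86 to 2.07. Outside the cord it was detected on 1 of 8 arrays, the wild-type injected-side DRG, at -2.09. Its fitted difference between cord and nerve was 3.53 (SE 0.33, 11.6-fold, adjusted p = 2.18e-05), which rests on 4 undetected nerve signals. These lay above the lowest detected signal of their arrays, so no lower bound is given. Hoxb8 was also called higher in cord than in DRG, where 1 of 4 arrays measured it. That fitted difference of 3.32 (SE 0.33, adjusted p = 6.93e-05) rests on 3 undetected signals. The probe passed the filter of 2 arrays only through the cord arrays, where it was high. Its adjusted p-values against nerve and DRG are therefore not separate support for a higher cord level. With normexp correction these differences were 1.5 and 1.47 and stayed called. Between DRG and nerve its difference was 0.21 (95% CI -0.55 to 0.97). Hoxd12 was detected on all 4 cord arrays, at -1.49 to -1.11, on 2 DRG arrays and on no nerve array. It was at least 2.19-fold higher in cord than in nerve (adjusted p = 5.56e-04) and was called higher in DRG than in nerve, where 2 DRG arrays and no nerve array measured it (fitted difference 1.5, SE 0.27, adjusted p = 0.0023). Between cord and DRG its difference was 0.23 (95% CI -0.40 to 0.86). With normexp correction the difference of Hoxd12 was 0.01 between cord and nerve (adjusted p = 0.97) and 0.15 between DRG and nerve (adjusted p = 0.44).

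Hoxd10 was detected on 3 of 4 DRG arrays, at -1.04 in the wild-type contralateral, -0.71 in the wild-type injected-side and -0.31 in the nude injected-side DRG. These levels lay above the wild-type cord above the enlargement, at -2.10, and below the lumbar cord. With 3 of 4 DRG arrays and no nerve array measuring it, Hoxd10 was at least 2.65-fold higher in DRG than in nerve (adjusted p = 0.0042), which normexp correction reduced to a difference of 0.31 (adjusted p = 0.28). The averaged cord, measured on 3 of 4 arrays, exceeded nerve at least 6.10-fold (adjusted p = 1.44e-04, and a difference of 1.49 in place of 3.13 with normexp correction). It exceeded DRG by 1.20 (SE 0.40, adjusted p = 0.028), a mean of 2 very unlike sites, and this call was lost at the 75th percentile (1.02, adjusted p = 0.059). It was also lost without the nude contralateral DRG (1.23, adjusted p = 0.065), the wild-type injected-side DRG (0.98, adjusted p = 0.11), the wild-type contralateral DRG (1.18, adjusted p = 0.071), the wild-type lumbar cord (0.99, adjusted p = 0.097) or the wild-type cord above it (0.77, adjusted p = 0.096). Hoxa11 was detected outside the lumbar cord on 2 arrays, the nude contralateral nerve at -0.80 and the wild-type injected-side DRG at -1.45. Its tissue means were not called different in any of the 3 comparisons, with differences between -0.05 and 0.43. Without the nude lumbar array Hoxa11 was called higher in cord than in DRG (1.02, adjusted p = 0.025) and in nerve (0.97, adjusted p = 0.026).

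**Figure D5:**
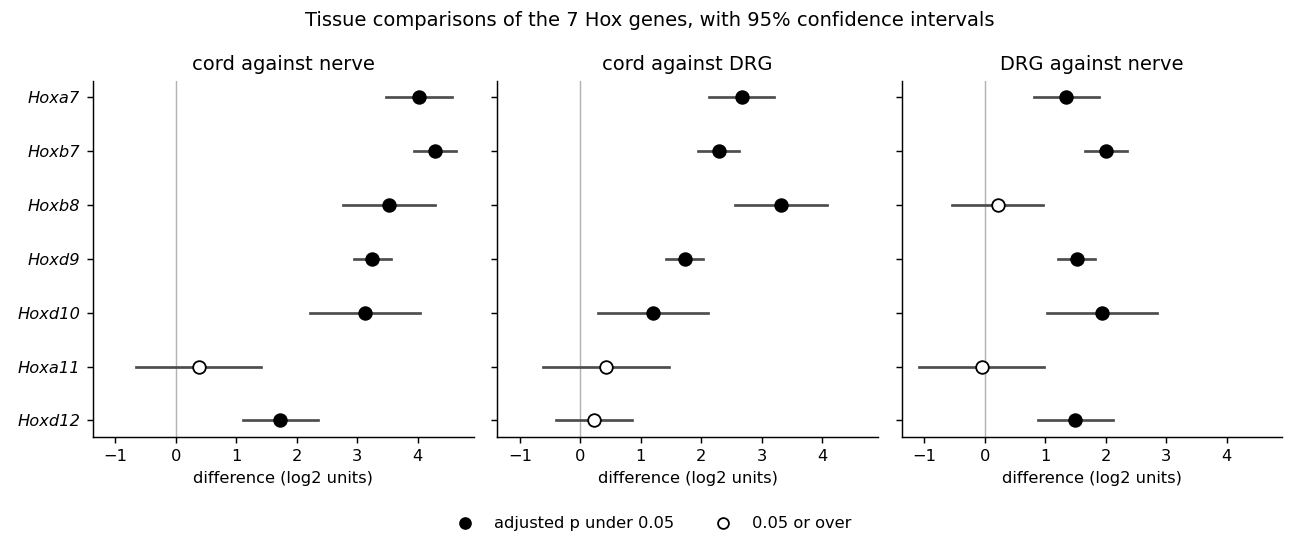
Difference in log2 level (horizontal axis) of the 7 Hox genes in the 3 tissue comparisons, with 95% confidence intervals from the fit over 12 arrays and filled points where the adjusted p was under 0.05. Hoxa7, Hoxb7 and Hoxd9 were above 0 in all 3, and Hoxa11 spanned 0 in all 3.

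The other Hox genes that passed the filter followed the same order in part. Limma called 4 of 6 higher in cord than in nerve, 5 of 6 higher in DRG than in nerve, and 3 of 6 higher and 1 lower in cord than in DRG. Hoxa2, an anterior hindbrain gene, was 2.53-fold higher in cord than in DRG (adjusted p = 8.72e-04), and Hoxb4 was 1.59-fold higher (adjusted p = 0.019). Hoxd1, which in mouse is used by pain-sensing neurons of the DRG, was also higher in cord than in DRG, by 1.02 (adjusted p = 0.022), and was detected on both wild-type DRG arrays and on neither nude one. Hoxc4 went the other way, 2.07-fold higher in DRG than in cord (adjusted p = 3.55e-04), with DRG levels of 1.38 to 1.70 and cord levels of 0.05 to 0.98. Hoxd4 was called in 1 comparison, higher in DRG than in nerve (difference 0.43, adjusted p = 0.045), and Hoxc5 in none.

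The 2 sides of a tissue were compared without a test, since each rat type gave 1 array per side. In nerve, Hoxa7 was lower on the injected side in both rat types, by -0.50 in wild-type and -1.06 in nude rats, and so was Hoxd9, by -0.74 and -1.18. Hoxb7 was higher on the injected side by 0.42 and 0.12. In DRG, Hoxb7 was higher on the injected side by 0.35 in wild-type and 0.13 in nude rats, while Hoxa7 and Hoxd9 went opposite ways in the rat types. Hoxd10 was higher on the injected side where both wild-type DRG arrays detected it, at -0.71 against -1.04. The nerve differences of nude rats were not far below the DRG-nerve differences of the same probes, 1.35 for Hoxa7 and 1.52 for Hoxd9.

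Hox proteins bind DNA together with partner homeodomain proteins of the Pbx, Meis and Pknox (TALE) families. Of 9 such genes 7 were tested, and limma called 4 higher and 1 lower in cord than in DRG, 2 higher and 2 lower in cord than in nerve, 4 lower in DRG than in nerve, and none between the cord sites. The median difference of the 7 was 0.51, 0.21, -0.52 and 0.04 in these comparisons. Meis1 was higher in cord than in DRG by 3.39 (adjusted p = 1.31e-06) and than in nerve by 1.69 (adjusted p = 1.55e-05), and Pbx3 was higher by 2.22 (adjusted p = 5.12e-06) and 1.69 (adjusted p = 8.54e-06). Pknox1 was lower in cord than in nerve, by -1.07 (adjusted p = 1.17e-04). Meis3 was higher in cord than in DRG, by 0.79 (adjusted p = 0.0092). Pbx2 and Pbx4 were each called in 1 comparison.

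Of 18 genes known to set Hox expression, among them retinoic acid enzymes and receptors, Polycomb and Trithorax genes, 11 were tested. Limma called 4 higher and 5 lower in cord than in DRG, 2 higher and 6 lower in cord than in nerve, 6 lower in DRG than in nerve and none between the cord sites, with median differences of -0.21, -0.93, -0.63 and -0.07. The retinoic acid receptors Rara and Rarg were lower in cord than in nerve by -3.18 (adjusted p = 1.32e-06) and -2.59 (adjusted p = 2.41e-06). Aldh1a2, which makes retinoic acid, was higher in cord than in nerve by 2.10 (adjusted p = 7.78e-04), and Cyp26b1, which degrades it, was lower by -2.10 (adjusted p = 9.01e-05). The others called in at least 1 comparison were Ring1, Cyp26a1, Wdr5, Eed, Ezh2 and Cbx2.

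Over the 12 arrays the genes outside the Hox clusters whose levels were most like those of a member were found by Pearson correlation among 11430 genes detected on at least 4 arrays, as a description, since the arrays share their tissues and animals. The 2 closest to Hoxa7 were Ctxn1 (r = 0.99) and Fbxo31 (0.99), those closest to Hoxb7 were Ankrd13d (0.99) and Dscam (0.99), and those closest to Hoxb8 were Pnma3 (0.99) and Nrl (0.99). For Hoxd9 they were Tspyl2 (0.97) and Stap2 (0.97), and for Hoxd12 Robo1 (0.96) and Rab39a (0.95). Hoxd10 and Hoxa11 had no such close match, with Ocrl (0.80) and Nsd2 (0.79) nearest to Hoxd10 and Trim66 (0.75) and Pals2 (0.70) nearest to Hoxa11. Undetected levels entered these correlations. Hoxa11 was detected on 4 of the 12 arrays, Hoxb8 on 5 and Hoxd10 and Hoxd12 on 6 each. Pnma3, Nrl and Trim66 were detected on 4 each. A high or low r of these 4 members thus rests in part on signals near background. Among the members themselves, Hoxa7 and Hoxb7 had r = 0.96 and Hoxd10 and Hoxa11 r = 0.82, while Hoxa11 with Hoxd12 had the lowest, 0.10.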

How the data were processed

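The data are 12 single-colour Agilent arrays of rat sciatic nerve, DRG and dorsal cord. The authors labelled total RNA with Cy3, scanned the slides and extracted spots with Feature Extraction software (10.5 per the labels, 10.7.3.1 per the file headers). The deposited intensity values are background-subtracted signals per spot. The deposited flags, used as other values, mark detection, saturation and outlying pixels. The deposited log2 values, made by the authors in GeneSpring, served as an alternative. They have a median of 5.25 on every array and, once sorted, no 2 arrays are more than 0.00153 apart at any rank, as quantile normalization gives.

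Here outlier spots were left out, log2 signals of a probe's spots were averaged and the array median was subtracted. A probe was detected where at least 0.5 of its spots were flagged as well above background. Of 30367 probes, 18006 were named through RefSeq accessions. Limma 3.58.1 (lmFit and eBayes, two-sided, Benjamini-Hochberg over 22719 probes, threshold 0.05) in R 4.3.3 fitted site and rat type on all 12 arrays, leaving 5 residual degrees of freedom. The 2 rat types thus act as replicates, p-values measure only the spread between these arrays, and rat type also stands for strain, day, pool and, in DRG and cord, slide. Slide 1 held the 6 nude and the 2 wild-type nerve arrays and slide 2 the other 4. The number of arrays limits the precision. The fit was tested on simulated data. Non-member genes were represented by their brightest probe.

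The text names all members, the other Hox genes that passed the filter, up to 4 genes with values per partner and regulator list, and the 2 closest genes by correlation. Hoxb9, Hoxd13 and the marker genes given with values fall outside this rule and were chosen after their values were seen. Some genes of the lists are not reported here by name. The members and lists were chosen with earlier results of these data known. Alternatives were the 75th percentile, quantile normalization, normexp correction of the median spot signals with an offset of 50, the authors' values, outlier spots kept, no filter, detection on at least 6 arrays, a floor, slide as a term, no rat type term, trend and robust estimation, 1 rat type alone, and each array left out. Python 3.11.15, numpy 2.4.6, pandas 2.3.3 and matplotlib 3.10.9 were used.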

Additional observations from a re-analysis of the deposited data

Results flagged for a closer look

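For 4 of the 11 pairs of sites at which a member was detected on all 4 arrays, the wild-type and nude rats moved in opposite directions, and these differences between rat types were not tested. Hoxa7 was higher in the injected-side than in the contralateral DRG of wild-type rats by 0.62 on the log2 scale and lower in nude rats by -0.64. In the lumbar cord against the cord above it, Hoxa7 differed by 0.16 in wild-type and -0.34 in nude rats, and Hoxd12 by -0.040 and 0.24. Hoxd9 differed between injected-side and contralateral DRG by 0.26 in wild-type and -0.047 in nude rats. In 21 groups of 4 arrays, 1 group for each member and tissue, no array stood apart by Dixon's criterion. Each group held both sites of a tissue and both rat types. Where the sites differ, as for Hoxd10 and Hoxa11 in cord, a single array can hardly reach the criterion. It thus does not show whether an array was aberrant.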

How the results depend on the processing

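The tissue differences of Hoxa7, Hoxb7, Hoxb8 and Hoxd9 that were called, and those of Hoxd10 and Hoxd12 against nerve, kept their direction in all settings that kept the probe. They also kept their call except, with normexp correction, those of Hoxd12 against nerve and that of Hoxd10 between DRG and nerve. The Hoxb8 probe passed the main filter only through the cord arrays, so its kept calls are not separate support. Leaving out 1 array at a time gave 11691 to 14756 called probes and 4 to 6 members for cord against DRG, 13446 to 15395 and 6 to 7 for cord against nerve, 9203 to 11476 and 5 to 5 for DRG against nerve, and 0 to 16 probes and 0 to 1 member for the lumbar comparison, against 14002, 15246, 10942 and 26 probes with all arrays. The lumbar count also moved to 1 with normexp correction, 11 with no filter, 45 with detection on at least 6 arrays, 14 with slide as a term and 83 with trend and robust estimation, and 1 member was called with normexp correction, no filter or slide as a term. Normexp correction gave 5287 probes and 3 members for DRG against nerve. The 75th percentile turned the split for DRG against nerve from 3427 higher and 7515 lower to 5010 and 5251, quantile normalization to 4479 and 5815 and the authors' values to 4480 and 5817. For cord against DRG it went from 7163 and 6839 to 5903 and 8569 with the 75th percentile and to 7287 and 4216 with normexp correction. The 75th percentile moved the median of all probes for DRG against nerve from -0.21 to 0.02 and for cord against DRG from -0.02 to -0.20.

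Only values that were not called turned direction. Hoxa11 between DRG and nerve was 0.18 at the 75th percentile, 0.17 in wild-type rats alone and -0.39 to 0.29 with 1 array left out. Between cord and nerve it was -0.030 with slide as a term, -0.22 in nude rats alone and -0.21 to 0.97 with 1 array left out, and between cord and DRG -0.16 to 1.02. Hoxb8 between DRG and nerve was -0.023 with quantile normalization, -0.0225 with the authors' values and -0.16 to 0.59 with 1 array left out. Hoxd12 between cord and DRG was -0.15 with normexp correction and -0.041 to 0.50 with 1 array left out. In the lumbar comparison Hoxa7 was 0.16 and Hoxd12 -0.040 in wild-type rats alone, and they were -0.46 to 0.28 and -0.072 to 0.27 with 1 array left out. The cause was not tested. Removing an array also lowered the residual degrees of freedom, and a lone array of a site was taken to vary like the others. Detection on at least 6 arrays removed Hoxa11 and Hoxb8 from the fit. Signals near background, as for Hoxa11, Hoxd12 and Hoxb8 outside the cord, limit what these arrays can show. Rat type stands as a block in the fit, which pairs the sites of a rat type, and without it 31 probes and 2 members were called in the lumbar comparison.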
